A study of Mus musculus with 20 samples.

Results

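The night to morning transition was examined in lymphatic endothelial cells (LECs) of mouse ear skin by setting the 5 libraries of ZT1 against the 5 of ZT19, that is 10 of the 20 libraries of the series. Zeitgeber time (ZT) counts hours from lights on, so that ZT1 is the early morning and ZT19 falls into the night, when mice are active. The members were chosen by the labelled time point alone, and the other 10 libraries (ZT7 and ZT13, 5 each) entered the fit to share the estimate of the spread. All mice were wild-type C57BL/6 at 56 days after birth, and no group received a treatment. Live podoplanin+CD31+ cells were sorted, and each library came from a pool of 4 ears of 2 mice, so each n is a number of pools and p-values measure the spread between pools. Podoplanin and CD31 are therefore gate markers, and the proteins on the sorted cells were not measured here.

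LECs line the lymphatic capillaries through which dendritic cells leave the skin. The circadian clock is a feedback loop in which CLOCK and BMAL1 (gene Arntl) bind E-box sequences and raise the expression of their own repressors, the PER, CRY, BHLHE and REV-ERB proteins, while D-box factors such as DBP carry the rhythm to output genes. Glucocorticoids, whose blood level in mice is known to be highest around the start of the night, pass a second time signal to tissues through the glucocorticoid receptor. The comparison asks which transcripts of dermal LECs were higher or lower in the morning than in the preceding night phase. All differences are given as ZT1 minus ZT19, so a positive value means higher in the morning. Levels are normalised read counts, raw counts scaled by the effective library size, and not corrected for gene length.

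The libraries of the groups differed before any gene was compared. Between 5902909 and 8675905 reads fell on genes at ZT1 and between 10809823 and 36022409 at ZT19. Gene reads made up 20.2% to 29.5% of the sum of gene reads and reads outside genes at ZT1 and 35.0% to 81.6% of it at ZT19. Genes with at least 1 count numbered 19055 to 21525 at ZT1 and 12477 to 18768 at ZT19. In these properties, and in the median exon length of the counted genes (4645 to 5953 bases at ZT1 and 3469 to 4298 at ZT19), the groups did not overlap (exact permutation test, two-sided, p = 0.00794 for each, which is the lowest value possible with 5 against 5, adjusted p = 0.00794 over 5 properties). No batch is named in the labels, so these library properties and the time of day cannot be told apart. ZT19 replicate 4 was the ZT19 library nearest to the morning libraries in the share of reads on genes (35.0%), the reads on genes and the genes detected, but not in the median exon length (3788 bases, with ZT19 replicate 2 nearest at 4298).

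**Figure D1:**
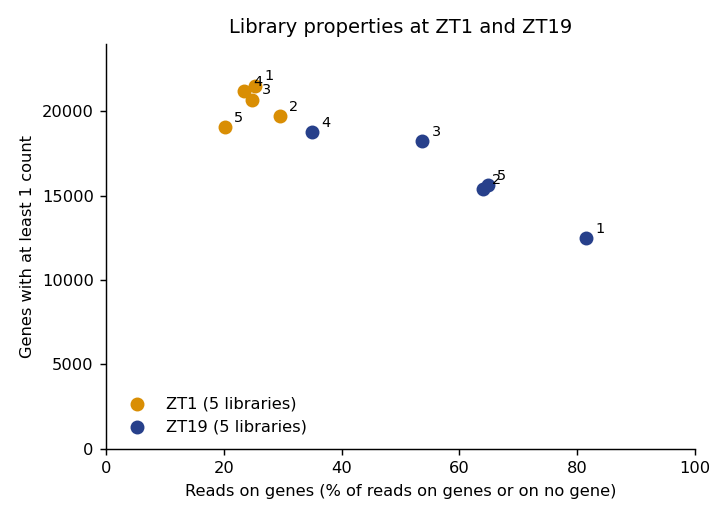
Percentage of reads that fell on genes (x axis) against the number of detected genes, those having a count (y axis), 1 point for each library with its replicate number, ZT1 in orange and ZT19 in blue. The 5 ZT1 libraries lie between 20.2% and 29.5%, and ZT19 replicate 4 at 35.0% is the ZT19 library nearest to them.

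The counts of Lars2, Rn45s and Mir6236 were also apart between the groups. Rn45s is the precursor of the ribosomal RNAs, and the annotation of Lars2, a mitochondrial leucyl-tRNA synthetase, overlaps a ribosomal RNA repeat. Mir6236 is an annotated microRNA locus. These 3 genes were chosen after their values were seen, and the ribosomal RNA content of the libraries was not measured from the reads. Lars2 measured 1805624, 599224, 1336548, 2002319 and 250556 normalised counts at ZT1, against 714, 7709, 20478, 219035 and 12044 at ZT19. Rn45s measured 381440, 419124, 445009, 535042 and 351668 at ZT1, against 12914, 13527, 55784, 261272 and 69568 at ZT19. For all 3 genes, Mir6236 included, the lowest ZT1 library exceeded the highest ZT19 library, which was replicate 4 each time. None passed the test of edgeR (adjusted p = 0.0979 for Lars2, 0.107 for Rn45s and 0.0900 for Mir6236). Together they took 4.42% to 25.2% of all counts at ZT1 and 0.150% to 3.55% at ZT19. The 100 most counted genes took 25.3% to 35.3% of the counts at ZT1 and 15.1% to 25.3% at ZT19 (adjusted p = 0.00794, two-sided exact permutation test), but 13.6% to 22.2% and 15.1% to 22.8% once the 3 genes were removed (p = 0.810, two-sided exact permutation test). The share of reads on genes and the number of genes detected remained without overlap after this removal, while the difference in median exon length went from 1347 to 762 bases.

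Across all 19209 genes tested, 3 differed at an adjusted p under 0.05, and all 3 were higher at ZT19 (0.0156% of the genes tested), whereas 0 were higher at ZT1 (0%). Log2 fold changes were positive for 12003 genes and negative for 7206. Among the 12215 genes with a mean of at least 50 over the 10 libraries these numbers were 5909 and 6306. At an unadjusted p of 0.05 or less, 2763 genes were higher at ZT1 (14.4%) and 1392 at ZT19 (7.25%). This balance turned to 1288 and 1531 among genes with a mean normalised count of at least 50 over the 20 libraries, and likewise with edgeR on the 10 libraries alone (1033 and 2078), with the length offset (1947 and 3294), with the gene read share as a covariate (498 and 1247) and with counts thinned to the smallest library (1112 and 1735). For 1186 genes all ZT1 values lay above all ZT19 values (6.17%), and for 458 the reverse was found (2.38%), together 8.56% of the genes tested. Of the 12215 genes with a mean of at least 50 over the 10 libraries, 338 and 449 were apart in these directions. The totals also hold 6994 genes with lower counts, of which 848 and 9 were apart. These passed a filter that used the time points, so no direction is read from them. DESeq2 on the same libraries called 1669 genes higher at ZT1 and 522 higher at ZT19, of 23195 tested. Without ZT19 replicate 4, edgeR called 646 and 256 of 19805 genes tested. The numbers over all genes in this paragraph are the background for the list counts below. Without any 1 of the 5 ZT1 libraries, or without ZT19 replicate 1, edgeR called 0 genes, without ZT19 replicate 2 or 3 it called 1 each, and without ZT19 replicate 5 it called 2, all higher at ZT19. When the gene read share entered the model as a covariate, edgeR called 0 genes.

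The 3 genes that passed the test were Krt15, Slc10a6 and Lad1. Krt15, on chromosome 11 (100131758 to 100135928, minus strand, GRCm38), encodes a keratin of basal keratinocytes and hair follicle bulge cells. It measured 5158, 8962, 7325, 4198 and 7689 normalised counts at ZT1, against 64071, 24196, 25760, 39685 and 53288 at ZT19. Krt15 thus fell from 41400 ± 17312 in the night to 6666 ± 1944 in the morning (mean ± SD, n = 5 each), a log2 fold change of -2.63 ± 0.42 (SE, edgeR adjusted p = 0.0161). Every ZT19 library lay above every ZT1 library, and Krt15 averaged 18674 at ZT7 and 3653 at ZT13.

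Lad1, on chromosome 1 (135818598 to 135833342, plus strand, GRCm38), encodes ladinin, a protein of the epithelial basement membrane zone. It measured 195, 268, 233, 149 and 208 at ZT1, against 1755, 772, 1473, 602 and 599 at ZT19. Lad1 fell from 1040 ± 538 to 211 ± 44.6 (log2 fold change -2.30 ± 0.41, adjusted p = 0.0369), again with no overlap. It averaged 555 at ZT7 and 157 at ZT13, so that Krt15 and Lad1 shared the order ZT19, ZT7, ZT1, ZT13 from high to low.

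Slc10a6, on chromosome 5 (103605711 to 103629403, minus strand, GRCm38), encodes a transporter of sulphated steroids and is known as a glucocorticoid-induced gene. It measured 595, 443, 525, 370 and 333 at ZT1, against 1964, 2248, 1878, 676 and 2136 at ZT19. Slc10a6 fell from 1780 ± 634 to 453 ± 108 (log2 fold change -1.97 ± 0.34, adjusted p = 0.0369). ZT19 replicate 4 was far below the other ZT19 libraries but still above every ZT1 library. Slc10a6 averaged 2126 at ZT13 and 952 at ZT7, an order of time points that differed from that of Krt15 and Lad1.

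The 3 calls were sensitive to single libraries. When each of the 10 libraries was left out in turn, Krt15 remained under the threshold in 4 of 10 fits, Lad1 in 2 and Slc10a6 in 1. Their log2 fold changes kept the sign in all 25 alternative fits, between -3.41 and -2.10 for Krt15, between -3.08 and -1.81 for Lad1 and between -2.76 and -1.32 for Slc10a6.

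The 250 bases before the start site of Slc10a6 and Lad1 are shown because these genes carry the comparison. They were taken from RefSeq (GRCm38.p6), where 68 of the 88 named genes matched. The windows were searched on both strands for the E-box CACGTG, for AGAACA, the 6-base element bound by the glucocorticoid receptor, for the full palindromic glucocorticoid response element and for the D-box TTATGTAA, and matches are in capitals.
Slc10a6 (chr5:103629404-103629653, minus strand): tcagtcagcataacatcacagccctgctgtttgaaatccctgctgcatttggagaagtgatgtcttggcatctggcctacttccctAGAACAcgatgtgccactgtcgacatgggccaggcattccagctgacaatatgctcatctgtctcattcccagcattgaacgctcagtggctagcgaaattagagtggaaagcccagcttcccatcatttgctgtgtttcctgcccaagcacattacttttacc
Lad1 (chr1:135818348-135818597, plus strand): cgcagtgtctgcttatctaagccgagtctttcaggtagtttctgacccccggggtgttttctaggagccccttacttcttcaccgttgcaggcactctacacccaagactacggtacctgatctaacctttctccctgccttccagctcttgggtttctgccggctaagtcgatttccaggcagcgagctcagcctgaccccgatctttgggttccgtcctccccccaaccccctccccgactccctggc
The Slc10a6 window holds AGAACA once, beginning 164 bases before the start, and none of the 4 motifs was found in the Lad1 window. AGAACA or its complement occurs in 16.1% of all 32851 windows of the same length, so its presence is a description of the sequence and not a site.

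Krt15 and Lad1 are epithelial genes, and a list of keratinocyte markers was therefore followed. Of 16 keratinocyte markers tested, 14 had a negative log2 fold change, beside 7206 of all 19209 genes tested. Of the 16, 1 (Krt15) passed edgeR's test (4 by DESeq2). At an unadjusted p of 0.05 or less 8 were higher at ZT19 (7.25% of all genes). The median log2 fold change of the list was -1.05, beside 0.39 over all genes tested, and it stayed negative in all 25 alternatives (-1.61 to -0.21). The summed level of the list ran from 37531 to 75675 at ZT1 (median 52443) and from 95476 to 198929 at ZT19 (median 156524), with no overlap. Krt14, the keratin of the basal layer, measured 10695, 30238, 22524, 16097 and 19070 at ZT1, against 39291, 36654, 61868, 52602 and 72834 at ZT19. The groups of Krt14 were thus apart, with a log2 fold change of -1.42 that did not pass the test (adjusted p = 0.0995). Sfn, an epithelial 14-3-3 protein, averaged 686 ± 359 at ZT1 and 2309 ± 1177 at ZT19 (adjusted p = 0.0825), and its groups overlapped. Krt5, Perp and Col17a1, genes of basal keratins, desmosomes and hemidesmosomes, had log2 fold changes of -1.02, -1.12 and -1.22. In bulk samples fewer cells of a type and less RNA per cell cannot be told apart, and whether keratinocytes passed the gate was not tested.

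Genes that respond to glucocorticoids were followed next. Of 16 listed genes, all tested, 1 (Slc10a6) passed edgeR's test. At an unadjusted p of 0.05 or less 6 were higher at ZT19 and 1 at ZT1 (7.25% and 14.4% of all genes tested). The groups of 4 genes were apart, all higher at ZT19 (2.38% of all genes). The median log2 fold change was -0.79, and it stayed negative in all 25 alternatives (-0.95 to -0.18). Tsc22d3 (GILZ), a mediator of glucocorticoid action, measured 1833, 1381, 1379, 907 and 1209 at ZT1, against 4728, 10598, 7519, 3192 and 7744 at ZT19. Its log2 fold change was -2.33 ± 0.49 (adjusted p = 0.0689), and the lowest ZT19 library lay above the highest ZT1 library. Dusp1, a phosphatase that switches off MAP kinases, measured 2943, 2704, 2777, 3104 and 4119 at ZT1, against 23481, 14067, 8726, 4325 and 8586 at ZT19. The lowest of these night values, in replicate 4, was close to the highest morning value, and the log2 fold change of -1.92 did not pass the test (adjusted p = 0.0848). Cebpd, a transcription factor of the acute phase, measured 739, 825, 889, 706 and 618 at ZT1, against 1520, 1264, 1481, 1181 and 1626 at ZT19 (log2 fold change -0.90, adjusted p = 0.103), and every night value lay above every morning value.

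Other members of this group did not separate. Fkbp5, a co-chaperone of the glucocorticoid receptor, averaged 407 ± 71.1 at ZT1 and 758 ± 329 at ZT19, and ZT19 replicate 4 (313) lay below all ZT1 libraries. Sgk1, a kinase, averaged 1613 ± 553 and 3115 ± 1361. Klf9, Errfi1, Ddit4, Lcn2 and Pdk4 had log2 fold changes between -0.02 and 0.87, none with an adjusted p under 0.05. Nr3c1, which encodes the receptor itself, averaged 4787 ± 804 at ZT1 and 3118 ± 597 at ZT19 (log2 fold change 0.62, adjusted p = 0.220), the opposite direction to Tsc22d3. Without ZT19 replicate 4, 4 of the 16 genes were called higher at ZT19, while the list median moved to -0.18 with 8 positive and 8 negative values. At ZT13 the means of Tsc22d3 (7356), Dusp1 (10446), Cebpd (2748) and Fkbp5 (1554) were near to or above those of ZT19, and at ZT7 those of Tsc22d3 (2965) and Dusp1 (3742) lay nearer to ZT1. The ZT13 mean of Tsc22d3 (SD 6081) rested on replicate 5 (18102). Its other ZT13 libraries had 3512 to 5734, all below the ZT19 mean of 6756. AGAACA was found before 3 of the 13 list genes with a RefSeq promoter (Slc10a6, Tsc22d3 and Sgk1) beside 18.2% of all 27025 genes, and the palindrome before Sgk1 alone of the 13.

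**Figure D2:**
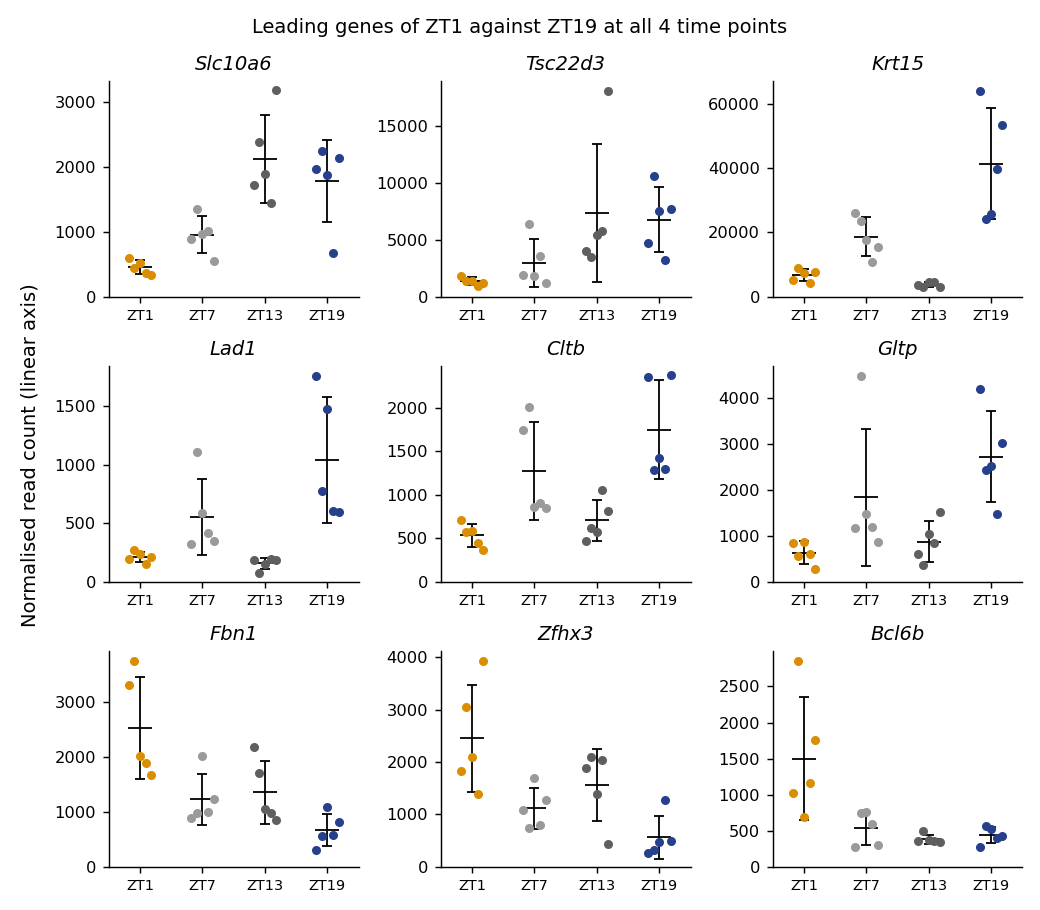
Normalised read counts (y axis, linear, from 0) of 9 genes at ZT1, ZT7, ZT13 and ZT19, with 1 point for each of the 5 libraries and black bars for the mean ± SD. At ZT19 Slc10a6 and Tsc22d3 are near their ZT13 mean, which for Tsc22d3 rests on ZT13 replicate 5. Krt15 and Lad1 are highest at ZT19, and Fbn1, Zfhx3 and Bcl6b are highest at ZT1.

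Beside the genes that passed the test, the genes with the smallest p whose groups did not overlap are given as values, since all had adjusted p between 0.0689 and 0.0817. Higher at ZT19 were Cltb, a light chain of clathrin, with 534 ± 133 at ZT1 and 1746 ± 565 at ZT19, and Gltp, a glycolipid transfer protein, with 632 ± 247 and 2727 ± 996. Arrdc1, an arrestin-domain protein involved in the budding of vesicles at the plasma membrane, measured 810 ± 194 and 2417 ± 480. Dusp14, a dual-specificity phosphatase, measured 69.2 ± 35.2 and 423 ± 237. Mpv17l2, a mitochondrial protein, measured 324 ± 35.4 and 956 ± 306, and Fibin, a secreted protein, 212 ± 96.7 and 749 ± 209. The log2 fold changes of these 6 genes lay between -2.60 and -1.56. Exon lengths of the 6 ran from 1322 bases (Mpv17l2) to 4868 bases (Cltb).

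Another 10 genes had ZT1 values that all lay above the ZT19 values. Fbn1, which encodes fibrillin-1 of elastic microfibrils, measured 3299, 3743, 2015, 1886 and 1667 at ZT1, against 311, 553, 1086, 580 and 814 at ZT19 (log2 fold change 1.92 ± 0.37, adjusted p = 0.0689). Ubqln2, an adaptor between ubiquitin and the proteasome, measured 508, 872, 474, 636 and 1243 at ZT1, against 48.2, 85.3, 140, 257 and 178 at ZT19 (log2 fold change 2.40 ± 0.48). Bcl6b, a transcriptional repressor related to BCL6, measured 1021, 2859, 695, 1168 and 1765 at ZT1, against 276, 561, 526, 393 and 428 at ZT19 (log2 fold change 1.78 ± 0.37). All morning values of these 3 genes exceeded all night values, and Bcl6b averaged 532 at ZT7 and 383 at ZT13, so that the ZT1 mean was the highest of the 4 time points. Zfhx3, a zinc finger homeobox factor expressed in the central clock of the brain, averaged 2456 ± 1021 at ZT1 and 563 ± 409 at ZT19, with ZT19 replicate 4 (1272) next to the lowest ZT1 library (1385). Ttbk2 (a tau tubulin kinase), Zbtb39 (a zinc finger protein), Ralgapb (a regulator of Ral GTPases), Gtf2a1 (a subunit of the general factor TFIIA), Atp13a3 (a P5-type ATPase) and 2310015A10Rik (a long transcript of unknown role) had log2 fold changes between 1.49 and 3.57. Exon lengths of the 10 genes higher at ZT1 ran from 2330 bases (2310015A10Rik) to 20976 bases (Zfhx3).

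The balance of directions changed with gene length, which was followed for genes with higher counts only. Among genes with a mean normalised count of at least 50 over the 10 libraries, split into 5 classes of merged exon length, the class of 67 to 2581 bases held 22 genes wholly higher at ZT1 and 191 wholly higher at ZT19. In the class of 7908 to 123179 bases the numbers were 154 and 19. The 3 classes between followed in order, with 34 and 120, 42 and 65, and 82 and 52. The median log2 fold change by class ran from -0.45 in the shortest to 0.49 in the longest. A fit with an offset for length called 0 genes, and Krt15 (1767 bases), Slc10a6 (2124 bases) and Lad1 (3400 bases) had log2 fold changes of -3.41, -2.76 and -3.08 in it. The part of length in the single gene results was not tested further.

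**Figure D3:**
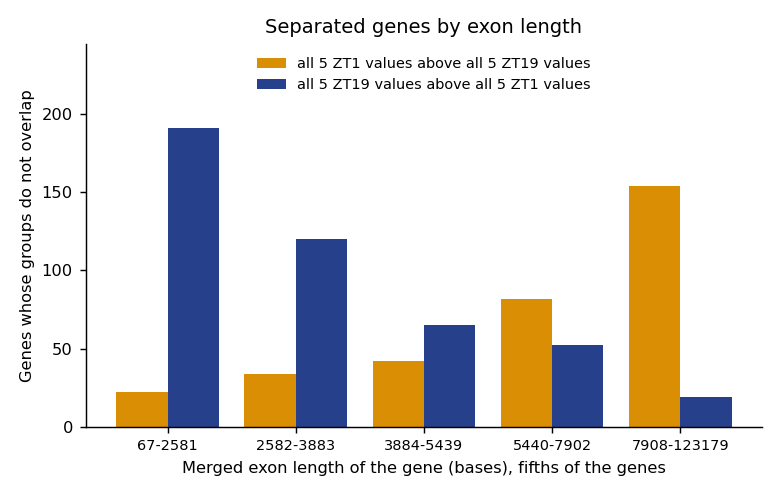
Number of genes (y axis) whose 5 ZT1 values all exceed the 5 ZT19 values (orange) or the reverse (blue), in 5 classes of merged exon length in bases (x axis), for genes with a mean normalised count of at least 50. The shortest class holds 22 against 191 genes and the longest 154 against 19.

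Expression of the clock genes was compared next. Of 20 genes in 3 clock lists, 0 passed edgeR's test. An unadjusted p of 0.05 or less was reached by 4 (Clock, Bhlhe41, Cry1 and Bhlhe40), and Bhlhe41 alone had groups that did not overlap. Over all genes tested these shares were 21.6% and 8.56%, either direction. By DESeq2, 2 were called, both higher at ZT1. Of the 6 genes of the activating limb 5 had a positive log2 fold change, and 3 of 6 with the gene read share as a covariate. Arntl measured 377, 196, 322, 452 and 596 at ZT1, against 370, 490, 364, 181 and 349 at ZT19. These groups overlapped fully (log2 fold change 0.15 ± 0.51, adjusted p = 0.891), and both exceeded the means of ZT7 (217) and ZT13 (112). Clock, its partner, measured 1334, 1119, 1465, 1046 and 2299 at ZT1, against 452, 468, 545, 1072 and 796 at ZT19 (log2 fold change 1.12 ± 0.36, adjusted p = 0.0951). ZT19 replicate 4 (1072) was the only night library within the range of the morning. The activators Npas2, Rora and Rorb had log2 fold changes between -0.14 and 1.83, all with overlapping groups.

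The repressors did not move together. Bhlhe41 (DEC2), which competes for E-boxes, measured 288, 263, 392, 371 and 891 at ZT1, against 99.8, 115, 112, 134 and 113 at ZT19. The night values lay within a narrow range, and the log2 fold change was 1.94 ± 0.55 (adjusted p = 0.0930). Its paralogue Bhlhe40 (DEC1) went the other way, with 1840, 1300, 1597, 1668 and 939 at ZT1, against 3273, 3621, 2924, 1318 and 1756 at ZT19 (log2 fold change -0.81 ± 0.39, adjusted p = 0.226). Cry1 measured 344, 228, 260, 424 and 548 at ZT1, against 1492, 918, 744, 285 and 398 at ZT19 (log2 fold change -1.09 ± 0.46, adjusted p = 0.164). The groups of Bhlhe40 and of Cry1 overlapped through ZT19 replicates 4 and 5, which were the lowest at night for both. Ciart (CHRONO), a repressor of BMAL1, averaged 102 ± 61.3 at ZT1 and 208 ± 88.3 at ZT19 (log2 fold change -1.03 ± 0.55, adjusted p = 0.270).

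The groups of the remaining clock genes overlapped. Per1, Per2 and Per3, the period genes, had log2 fold changes of 0.32, -0.76 and -0.28, each with an SE of 0.29 or more, and Cry2 had -0.28. Nr1d1 and Nr1d2, which encode the REV-ERB repressors of Arntl, had 0.26 and 0.36. Dbp measured 246, 305, 211, 203 and 220 at ZT1, against 258, 238, 193, 107 and 164 at ZT19, and both groups lay below the means of ZT7 (766) and ZT13 (457). Tef, Hlf and Nfil3, which bind the same D-box element, had log2 fold changes of -0.20, 0.76 and -0.28. All of these groups overlapped, and the smallest adjusted p was that of Hlf (0.290).

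**Figure D4:**
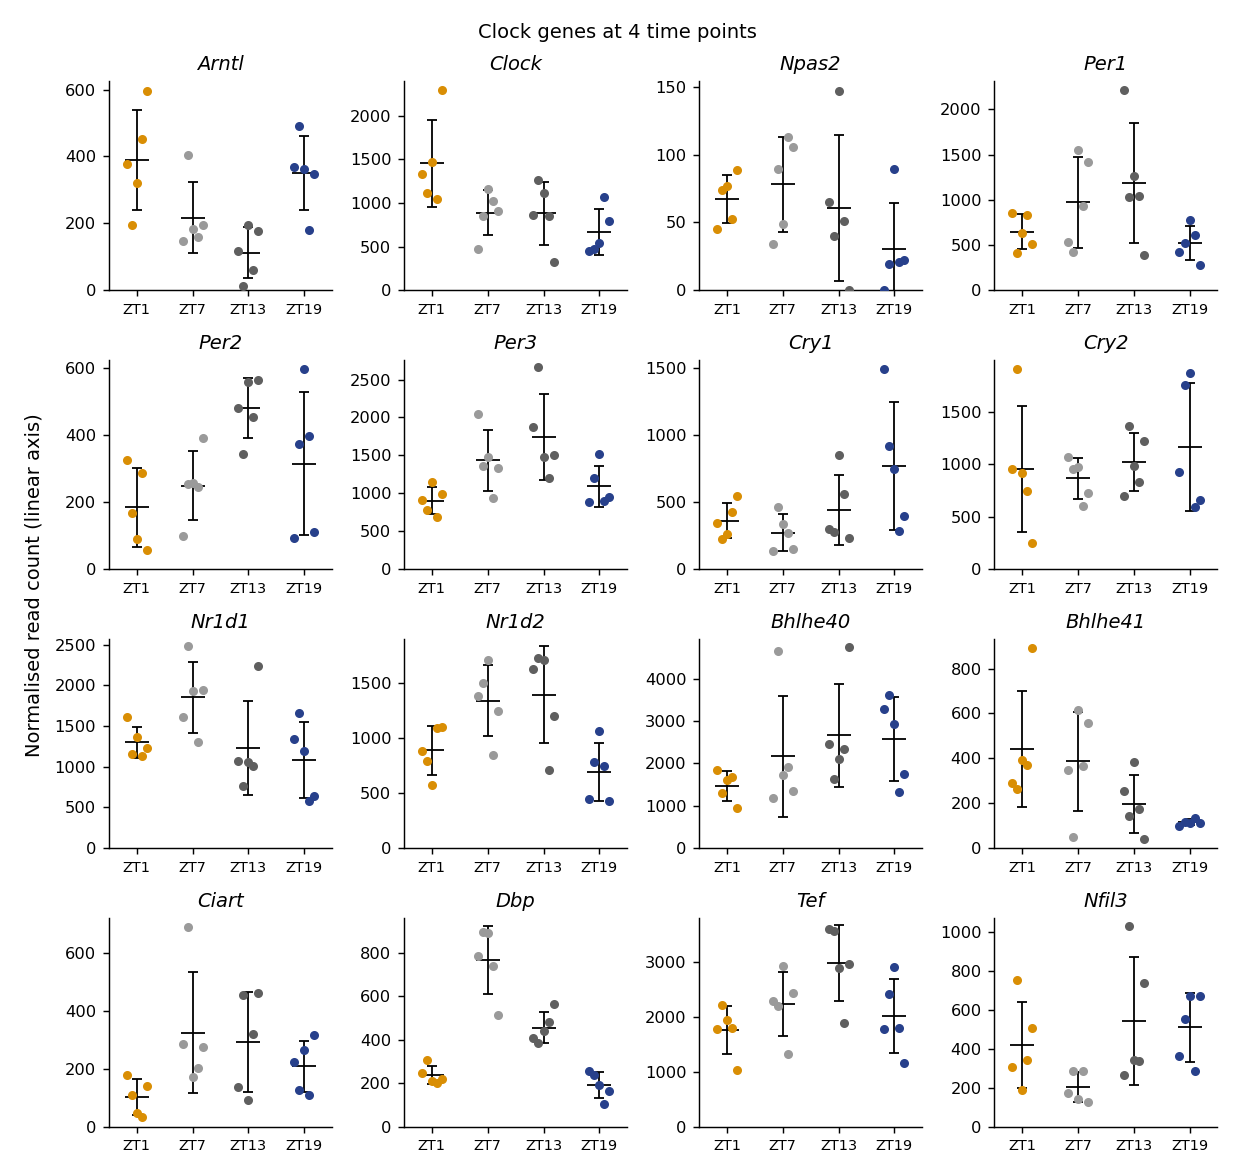
Normalised read counts (y axis, linear, from 0) of 16 clock genes at 4 time points, with 1 point for each library and black bars for the mean ± SD (n = 5). Bhlhe41 is the gene whose ZT1 values all lie above its ZT19 values, Arntl is alike at both times, and Dbp is low at both beside ZT7.

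The sequences before the start sites of Cry1, Bhlhe41 and Ciart are shown because these E-box genes had log2 fold changes of different sign, none past edgeR's threshold, with matches in capitals. With the gene read share as a covariate the values were 0.30 for Bhlhe41 (unadjusted p = 0.589), -0.13 for Ciart (unadjusted p = 0.835) and -0.89 for Cry1 (unadjusted p = 0.167), all by edgeR.
Cry1 (chr10:85185055-85185304, minus strand): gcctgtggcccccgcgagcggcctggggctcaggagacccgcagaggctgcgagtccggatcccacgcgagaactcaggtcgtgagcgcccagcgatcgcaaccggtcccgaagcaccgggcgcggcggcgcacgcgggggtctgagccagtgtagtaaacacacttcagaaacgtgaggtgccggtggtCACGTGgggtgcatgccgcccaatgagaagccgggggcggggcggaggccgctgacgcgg
Bhlhe41 (chr6:145865421-145865670, minus strand): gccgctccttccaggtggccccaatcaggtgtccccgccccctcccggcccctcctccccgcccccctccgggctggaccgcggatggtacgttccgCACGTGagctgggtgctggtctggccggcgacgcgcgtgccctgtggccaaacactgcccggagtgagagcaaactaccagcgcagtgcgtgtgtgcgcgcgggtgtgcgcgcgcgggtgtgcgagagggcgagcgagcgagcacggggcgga
Ciart (chr3:95882229-95882478, minus strand): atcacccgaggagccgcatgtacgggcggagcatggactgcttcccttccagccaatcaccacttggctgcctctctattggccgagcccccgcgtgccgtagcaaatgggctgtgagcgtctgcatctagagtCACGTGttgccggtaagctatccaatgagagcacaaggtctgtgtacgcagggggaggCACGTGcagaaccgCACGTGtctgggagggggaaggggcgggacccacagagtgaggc
The E-box begins 60 bases before the start in Cry1 and 153 bases before it in Bhlhe41, and the 3 copies in Ciart begin 116, 58 and 44 bases before it. Among the clock repressors it was found before 4 of the 8 genes with a RefSeq promoter (Per1, Cry1, Bhlhe41 and Ciart), before 0 of 5 activators and before 1 of 4 D-box genes (Tef), beside 6.02% of all windows and 6.86% of all genes.

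Of 15 listed genes that define LECs, 14 were tested, and all 14 were counted at both times. The remaining gene, Ccl21a, a chemokine with near-identical copies in the genome, had 0 counts in all 10 libraries. The summed level ran from 89158 to 114480 at ZT1 and from 74701 to 98710 at ZT19, with overlap. None passed edgeR's test (DESeq2 called 2 higher at ZT1 and 1 at ZT19). At an unadjusted p of 0.05 or less 3 were higher at ZT1 and 1 at ZT19 (14.4% and 7.25% of all genes tested). The median log2 fold change was 0.26, which turned to -0.45 with the length offset. Reln, the secreted glycoprotein reelin, measured 21351, 16725, 17782, 18193 and 16182 at ZT1, against 6112, 12146, 15083, 13529 and 9017 at ZT19, so its groups were apart although its log2 fold change was 0.69 (adjusted p = 0.277). Prox1, the master regulator of lymphatic fate, averaged 3523 ± 833 at ZT1 and 2084 ± 773 at ZT19 (log2 fold change 0.76 ± 0.32, adjusted p = 0.171). Maf, a transcription factor, and Nrp2, a co-receptor of VEGF-C, had log2 fold changes of 1.59 and 1.21, with ZT19 replicate 4 inside the morning range for both.

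The gate marker and vessel receptor genes stayed within the spread. Lyve1, a hyaluronan receptor, measured 15940, 24177, 16550, 16145 and 26809 at ZT1, against 6424, 20990, 16513, 19170 and 24562 at ZT19 (log2 fold change 0.18 ± 0.43, adjusted p = 0.834). Pdpn (podoplanin) and Flt4 (VEGFR-3) had log2 fold changes of 0.75 and 0.60 with adjusted p of 0.354 and 0.355, and Pecam1 (CD31) had 0.29 (adjusted p = 0.597). Ackr4, a scavenging receptor for CCL19 and CCL21, went the other way, with 182, 455, 211, 153 and 31.1 at ZT1, against 963, 397, 439, 756 and 882 at ZT19. Only ZT1 replicate 2 reached into the night range, and the log2 fold change was -1.73 ± 0.50 (adjusted p = 0.0930).

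Among 15 pan-endothelial genes 0 passed edgeR's test, and DESeq2 called 1, higher at ZT1. At an unadjusted p of 0.05 or less 2 were higher at ZT1 and 1 at ZT19 (14.4% and 7.25% of all genes tested). Cdh5, the VE-cadherin of endothelial junctions, measured 3409, 4372, 3265, 3231 and 5622 at ZT1, against 631, 975, 953, 3700 and 1413 at ZT19 (log2 fold change 1.38 ± 0.46, adjusted p = 0.100). ZT19 replicate 4 was the only night library that reached the morning level. Eng (endoglin) averaged 1543 ± 450 and 788 ± 244, and Esam, another junction molecule, averaged 337 ± 229 and 727 ± 253, the opposite direction. Without ZT19 replicate 4, 1 of the 15 genes was called, higher at ZT1.

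Molecules that guide leukocytes into lymphatics were compared in a list of 24 tested genes. None passed edgeR's test (DESeq2 called 1 higher at ZT1 and 4 at ZT19). At an unadjusted p of 0.05 or less 4 were higher at ZT1 and 5 at ZT19 (14.4% and 7.25% of all genes tested). The median log2 fold change was -0.11, which turned to 0.22 with limma-voom and to 0.03 with the gene read share as a covariate. Their summed level did not overlap between the groups, with 31992 to 42295 at ZT1 and 43415 to 83095 at ZT19. Cd9 carried most of this difference, and without it the sums overlapped (17001 to 24633 and 21892 to 28727). Sphk1, the kinase that makes sphingosine-1-phosphate, measured 382, 337, 501, 684 and 491 at ZT1, against 1074, 1004, 742, 960 and 924 at ZT19, and Cd9, a tetraspanin, averaged 16051 ± 1256 at ZT1 and 34047 ± 13004 at ZT19. Both separated the groups, with log2 fold changes of -0.97 (adjusted p = 0.0936) and -1.08 (adjusted p = 0.137). The chemokine Cxcl1 measured 49.1, 58.7, 22.6, 29.4 and 40.7 at ZT1, against 0, 105, 93.0, 490 and 1142 at ZT19, so the higher night mean rested on replicates 4 and 5. Ccl20 was carried by the same libraries (215 in replicate 4 and 696 in replicate 5, and at most 12 in any other of the 10), and Ccl2 was highest in replicate 4 (979), followed by replicate 2 (210).

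Adhesion molecules of dendritic cell entry were compared next. F11r (JAM-A) averaged 3636 ± 629 at ZT1 and 5663 ± 1572 at ZT19 (log2 fold change -0.64 ± 0.37, adjusted p = 0.314), and Jam3 (JAM-C) 178 ± 71.1 and 63.9 ± 57.2 (log2 fold change 1.47 ± 0.77, adjusted p = 0.263). Icam1 averaged 587 ± 90.2 and 908 ± 464, with 1703 in ZT19 replicate 2 as the highest value, and Vcam1 was low at both times (30.8 ± 30.0 and 30.0 ± 26.6). Alcam, a ligand of CD6, averaged 565 ± 507 and 149 ± 75.3. Of 18 junction and adhesome genes 0 passed edgeR's test and 1 reached an unadjusted p of 0.05 or less, namely Tjp1 (ZO-1), which averaged 1783 ± 614 at ZT1 and 950 ± 298 at ZT19 (edgeR adjusted p = 0.103). Tjp1 was also the 1 gene of this list called by DESeq2 (adjusted p = 0.0231).

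A list of adhesion genes that the study chose on these same libraries was also followed, and it is no independent evidence of a direction. It holds 121 symbols, more than the number of genes in the paper's integrated adhesion profile. Of its 117 genes found and tested, 0 passed edgeR's test, 40 reached an unadjusted p of 0.05 or less with higher values at ZT1 and 33 at ZT19, and the groups were apart for 12 and 16 genes. Its median log2 fold change was 0.32 and turned to -0.48 with the length offset. DESeq2 called 31 and 23 of them, and edgeR without ZT19 replicate 4 called 17 and 13. Genes separated and higher at ZT1 included Actn1 (alpha-actinin-1, 1591 ± 361 against 434 ± 270), Lrp6 (a Wnt co-receptor, 672 ± 111 against 234 ± 66.6) and Apc (3235 ± 772 against 1491 ± 304). Genes separated and higher at ZT19 included Rgcc (a cell cycle regulator, 904 ± 168 against 2812 ± 1152), Il20rb (a cytokine receptor chain, 482 ± 160 against 1463 ± 447) and Anxa1 (annexin A1, 2592 ± 671 against 7199 ± 2978). These 6 genes were chosen after their values were seen, and all had adjusted p between 0.0825 and 0.0905.

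**Figure D5:**
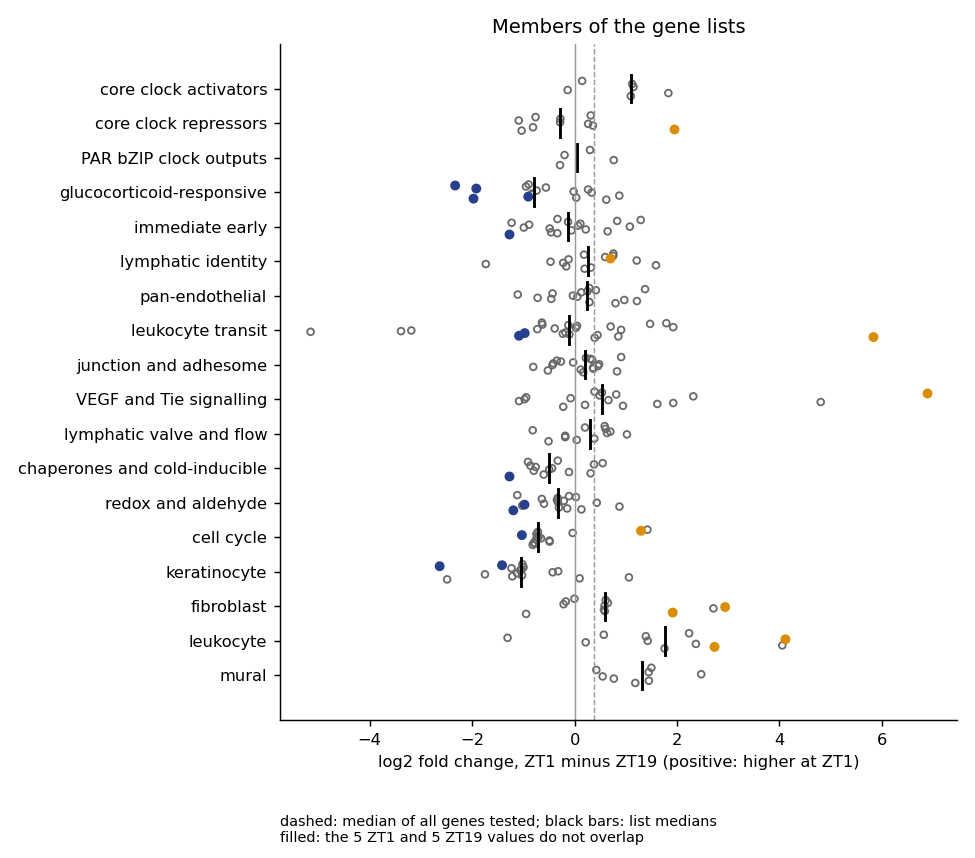
Log2 fold change (x axis, ZT1 minus ZT19) of each tested member of 18 gene lists (y axis). Filled points are genes whose groups do not overlap, black bars are list medians (-1.05 for keratinocyte markers, -0.79 for glucocorticoid-responsive genes), and the dashed line is the median of all genes tested (0.39).

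edgeR called 0 of 17 VEGF and Tie genes, and DESeq2 called 1 higher at ZT1, Vegfc (adjusted p = 0.0249). At an unadjusted p of 0.05 or less by edgeR 3 were higher at ZT1 and 1 at ZT19 (14.4% and 7.25% of all genes tested). Of 12 valve and flow genes neither tool called any, and 1 in each direction reached an unadjusted p of 0.05 or less. Notch1 averaged 5967 ± 1436 at ZT1 and 3101 ± 1758 at ZT19 (log2 fold change 0.94), and Adm (adrenomedullin, a lymphangiogenic peptide) 2462 ± 939 and 4847 ± 2614 (log2 fold change -0.98 ± 0.42, adjusted p = 0.171). Vegfc, a ligand of VEGFR-3, had 2 to 19 raw counts in every ZT1 library and 0 in all 5 ZT19 libraries. Its mean over the 10 libraries was 5.51 normalised counts, and it passed a filter that used the time points. Of the 6994 genes tested with a mean under 50, 848 were wholly higher at ZT1 and 9 wholly higher at ZT19. No direction is therefore read from Vegfc. The fitted log2 fold change of Vegfc was 1.86 with the gene read share as a covariate (unadjusted p = 0.279, edgeR), beside 6.87 without it. Klf2, a flow-induced factor, averaged 2786 ± 575 at ZT1 and 4912 ± 1888 at ZT19 (log2 fold change -0.82), and ZT19 replicate 1 (1626) was below all ZT1 libraries. Celsr1, a planar polarity protein of lymphatic valves, averaged 1870 ± 558 and 922 ± 643 (log2 fold change 1.02 ± 0.47, adjusted p = 0.207).

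Immediate early genes went both ways, with 7 positive and 10 negative log2 fold changes among the 17 tested. edgeR called 0 of them and DESeq2 1 in each direction. At an unadjusted p of 0.05 or less 1 was higher at ZT1 and 4 at ZT19 (14.4% and 7.25% of all genes tested). Myc measured 871, 607, 804, 1264 and 740 at ZT1, against 2700, 1767, 1746, 1669 and 2547 at ZT19 (log2 fold change -1.28 ± 0.36, adjusted p = 0.0930), so its groups were apart. Fosb, a subunit of AP-1, measured 511, 866, 925, 1012 and 1106 at ZT1, against 283, 293, 328, 516 and 387 at ZT19 (log2 fold change 1.29 ± 0.40), and the groups overlapped through the lowest morning and the highest night library. Fos, Jun and Ier2, other immediate early genes, had log2 fold changes of -0.33, -0.13 and -0.49. Of 11 NF-kB feedback and cytokine genes tested, 7 had a positive and 4 a negative log2 fold change (median 0.72, but -0.76 for the 7 with a mean of at least 50). edgeR called 0 of them, 2 reached an unadjusted p of 0.05 or less, and DESeq2 called 2 of the 12 it tested, both higher at ZT19. Nfkbia, the inhibitor of NF-kB, averaged 3451 ± 1122 and 7275 ± 3041 (log2 fold change -1.08, adjusted p = 0.131), and Ccl7 reached 443 and 842 in ZT19 replicates 2 and 4 but 103 or less elsewhere among the 10. Nfkbiz, another inhibitor of the family, averaged 882 ± 438 and 537 ± 221, and Tnfaip3 (A20) 336 ± 327 and 151 ± 130, both with overlapping groups.

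In the interferon and antigen presentation list, members again went both ways, edgeR called 0 and DESeq2 1 in each direction. The class I genes H2-D1 and H2-K1, which present peptides to CD8+ T cells, averaged 2738 ± 949 and 2488 ± 586 at ZT1 against 5200 ± 1078 and 4500 ± 916 at ZT19, and H2-D1 separated the groups. The interferon-stimulated genes Rsad2 (viperin) and Mx1 separated them in the other direction, at low levels of 124 ± 58.2 against 15.2 ± 17.8 and 23.8 ± 14.2 against 1.42 ± 2.52.

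edgeR called 0 respiratory chain and redox genes. DESeq2 called 6 of 84 and 4 of 17, and edgeR without ZT19 replicate 4 called 2 of 82 and 1 of 17, all higher at ZT19. Over all genes these fits called 522 of 23195 and 256 of 19805 higher at ZT19. Of 81 respiratory chain subunits tested, 68 had a negative log2 fold change, beside 7206 of all 19209 genes tested. At an unadjusted p of 0.05 or less 13 were higher at ZT19 and 1 at ZT1 (7.25% and 14.4% of all genes). The groups of 7 were apart, all higher at ZT19 (2.38% of all genes). The list median was -0.44, which turned to 0.68 when keratinocyte and fibroblast scores entered as covariates. The summed level overlapped, with a median of 177882 at ZT1 and 169898 at ZT19. Uqcrc1, a core subunit of complex III, averaged 3023 ± 209 at ZT1 and 7843 ± 3402 at ZT19 (adjusted p = 0.0930), and Sdhd, a subunit of complex II, 1122 ± 111 and 2574 ± 1145 (adjusted p = 0.0930). Of 17 redox and aldehyde genes, Gstp1 (a glutathione transferase) averaged 1074 ± 144 and 2460 ± 1375 and Gpx4 (a lipid peroxidase) 2579 ± 159 and 5082 ± 2333, both with groups apart. The redox list had 4 positive and 13 negative log2 fold changes (median -0.33), and 8 and 9 with the gene read share as a covariate (median -0.19). Aldh3a1, an aldehyde dehydrogenase, averaged 2604 ± 610 at ZT1 and 5655 ± 2105 at ZT19, beside 1495 at ZT7 and 1128 at ZT13, so both ends of the night to morning interval were above the day and evening means. Rbm3, a cold-inducible RNA-binding protein, measured 1273, 1117, 1368, 1464 and 908 at ZT1, against 1977, 2635, 2784, 2260 and 5249 at ZT19 (log2 fold change -1.28 ± 0.34, adjusted p = 0.0900). The heat shock gene Hspa1b averaged 687 ± 193 and 1292 ± 352 (adjusted p = 0.133).

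Of 15 cell cycle genes 0 passed edgeR's test, and DESeq2 called 2 higher at ZT1 and 1 at ZT19. A negative log2 fold change was found for 13, beside 7206 of all 19209 genes tested. Pcna, the sliding clamp of replication, measured 712, 564, 844, 647 and 687 at ZT1, against 1179, 1177, 1406, 1345 and 1942 at ZT19 (log2 fold change -1.03 ± 0.29, adjusted p = 0.0930), and Mcm6, part of the replicative helicase, averaged 893 ± 184 and 1507 ± 325. Mki67, a marker of cycling cells, measured 1140, 1230, 1857, 1526 and 876 at ZT1, against 494, 318, 371, 829 and 689 at ZT19 (log2 fold change 1.30, adjusted p = 0.0951), and Top2a, the topoisomerase of mitosis, averaged 1722 ± 925 and 643 ± 226. Pcna and Mki67 separated the groups in opposite directions. The other 11 genes of the list had log2 fold changes between -0.82 and -0.04.

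Markers of other cell types were also measured. Leukocyte markers summed to 356 to 666 normalised counts at ZT1 and 3.57 to 255 at ZT19, without overlap. Only 2 of the 11 tested had a mean count of at least 50, and since the filter on low counts used the time points, no count of directions is given for this list. edgeR called 0 of the 11, 2 reached an unadjusted p of 0.05 or less, and DESeq2 called 1 of the 12 it tested. Cd207 (langerin) averaged 23.1 ± 18.3 and 1.29 ± 2.24, Itgax (CD11c) 42.6 ± 38.3 and 2.71 ± 4.48. Fibroblast markers went both ways, 8 with positive and 4 with negative log2 fold changes (median 0.59, -0.09 with the length offset), and their sums overlapped (8373 to 21980 and 2069 to 14789). edgeR called 0 of the 12 and DESeq2 2, higher at ZT1. Fbn1 (above) and Dpt (dermatopontin, 277 ± 147 against 36.0 ± 27.0) were apart between groups, whereas Postn, the matrix protein periostin, averaged 153 ± 57.2 and 295 ± 265 with overlap. Only 5 of the 8 mural markers had a mean of at least 50, so no count of directions is given. The median log2 fold change was 1.18 for these 5 and 1.32 for all 8, with 0 calls by edgeR or DESeq2. Myh11 of smooth muscle averaged 74.8 ± 39.9 against 13.5 ± 12.6 and Cspg4 of pericytes 931 ± 194 against 548 ± 242. Of 12 blood endothelial markers 7 had a mean of at least 50, so no count of directions is given. The median log2 fold change was -0.22 for these 7 and 0.66 for all 12. The sums of the list overlapped (medians 2280 and 2326). Flt1 (VEGFR-1) measured 122 ± 46.6 and 22.8 ± 26.3, whereas Plvap, of fenestrated vessels, averaged 1672 and 1943. Only 3 of 8 melanocyte and Schwann markers had a mean of at least 50. The median log2 fold change was -0.00094 for these 3 and 0.67 for all 8, with overlapping sums. Tyr had 0 counts in all 5 ZT19 libraries and 1 to 14 raw counts at ZT1, and the mean of Dct rested on ZT1 replicate 5 (2689). Only 1 of 5 muscle markers, Mylpf, had a mean of at least 50 (log2 fold change -0.66), and the sums of the list overlapped (medians 166 and 137). Of 5 erythroid genes only Alas2 was tested (73.1 ± 60.6 against 13.1 ± 10.5), and the other 4 had 0 counts in all 10 libraries.

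The 1432 olfactory and vomeronasal receptor genes in the files, which have no known role in LECs, summed to 3763 to 9715 normalised counts at ZT1 and 166 to 4191 at ZT19, with overlap. Of these genes 305 passed the low count filter, which used the time points, so no count of their directions is given. The nuclear-retained RNAs Meg3 (275 ± 190 against 56.2 ± 34.3) and Kcnq1ot1 (2310 ± 1640 against 1049 ± 1206) had positive log2 fold changes of 2.29 and 1.14. With the gene read share as a covariate the list median was -1.17 for the mural markers (1.32 without it), -1.35 for the keratinocyte markers and -0.48 for the glucocorticoid-responsive genes. It was -1.20 for the muscle markers (0.65 without it), -0.98 for the melanocyte and Schwann markers (0.67) and -0.27 for the blood endothelial markers (0.66). For the leukocyte markers it was 0.24 (1.76) and for the fibroblast markers 0.08 (0.59). No member of these lists was called in that fit. The part of the read share in these differences was not tested further.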

How the data were processed

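Reads were mapped to mm10 (STAR) and counted on genes (HTSeq 1.0.0, tools as in the submitters' processing notes), and the authors deposited raw counts per gene symbol and library, without normalization. The 5 closing lines of each table, which name no gene, were left out of tests. Ranges of depth are given with the libraries, and the reads were amplified without molecular identifiers. The contrast ZT1 minus ZT19 was tested with the quasi-likelihood F-test of edgeR 4.0.16 (R 4.3.3) over all 20 libraries, after a low count filter that used the time points and TMM scaling, with Benjamini-Hochberg adjustment over 19209 genes and a threshold of 0.05. Alternatives used DESeq2 1.42.0 and limma 3.58.1. Exon lengths and positions came from GENCODE M21 (GRCm38, the build of mm10) for 98.4% of 24062 symbols, 916 through an older symbol. On simulated counts for this comparison in which 200 genes were given a log2 change of 3, edgeR found 103 of the 189 tested and called 5 unchanged genes, and DESeq2 found 118 of 197 and called 59. With no gene changed they called 0 and 7. The simulated counts held no group difference in gene read share, exon length or the counts of Lars2, Rn45s and Mir6236. They therefore do not give the rate of false calls in the real libraries.

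The lists and the rule for named genes (all calls, the 10 smallest p in each direction among separated genes with a mean of at least 100, all clock genes, 10 listed LEC and adhesion genes and the 2 smallest p of every other list) were chosen with earlier results of these data known. Other genes named with values were chosen after these were seen. The DESeq2 results of the authors were not used, and some genes of the lists and of the named gene rule are counted but not reported by name here.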

Additional observations from a re-analysis of the deposited data

Results flagged for a closer look

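Of 186 groups of 5 libraries examined over the named genes and library properties, 10 held a library far from the other 4, where about 9.3 would be expected by chance at 1 in 20, so the number itself is no finding. Values are given for 9 of the 10. The gap to the nearest library is given as a share of the range, on the scale of log2(normalised count + 1). ZT19 replicate 1 was the lowest for Klf2 (0.853, 1626 against 4986 to 6052), Ttbk2 (0.818, 48.7 against 177 to 236), Itgav (0.732, 64.6 against 495 to 1038) and Dpt (0.719, 0 against 20.6 to 71.1). ZT19 replicate 4 was the lowest for Slc10a6 (0.851, 676 against 1878 to 2248) and the highest for Pdpn (0.726, 2990 against 713 to 1056). ZT1 replicate 5 was the highest for Rsad2 (0.793, 227 against 89.8 to 109) and the lowest for Tef (0.712, 1039 against 1782 to 2216). ZT1 replicate 3 was the lowest for Gstp1 (0.872, 818 against 1117 to 1170).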

How the results depend on the processing

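The number of calls depended on the processing. Beside 0 genes higher at ZT1 and 3 higher at ZT19, DESeq2 called 1669 and 522 (2173 and 639 on the 10 libraries alone), limma-voom 87 and 10, RLE normalization 15 and 9, upper quartile normalization 6 and 5, a mean normalized count of at least 50 15 and 19, a robust fit 5 and 7, and counts thinned to the smallest library 2 and 6. With keratinocyte and fibroblast scores as covariates 406 and 66 were called, and after removal of Lars2, Rn45s and Mir6236, an alternative added after the data were seen, 12 and 9. The gene read share as a covariate and the length offset gave 0 and 0. With edgeR, no filter gave 0 and 3, the same 3 genes, and the 10 libraries alone also 0 and 3, of which 1 was shared. With each library left out, 0 to 646 genes were called higher at ZT1 and 0 to 256 at ZT19, the highest numbers without ZT19 replicate 4. The cause of these differences was not tested.

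After the mean of its time point was subtracted for each gene, same-numbered ZT1 and ZT19 libraries correlated between -0.02 and 0.04. These values do not show whether same-numbered libraries shared any step of processing. The replicate block left 0 calls in either direction.

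Of 2175 results for 88 named genes under 25 alternatives, 1887 kept their sign and their side of the threshold and 43, of 24 genes, turned their sign. With the gene read share as a covariate these were Rorb (-1.12), F11r (0.23), Cd207 (-0.66), Myh11 (-1.26), Cspg4 (-0.44), Ckm (-1.13), Tnnt3 (-1.20), Kcnq1ot1 (-0.024), Npas2 (-0.25), Per1 (-0.73), Cry2 (0.080), Nfil3 (0.29) and Vcam1 (-0.97). With the length offset they were Nr1d2 (-0.19), Prox1 (-0.041), Flt4 (-0.077), Cspg4 (-0.13), Kcnq1ot1 (-0.21), Arntl (-0.68), Per1 (-0.32), Nr1d1 (-0.50), Dbp (-0.47), Lyve1 (-0.28), Pecam1 (-0.44) and Vcam1 (-0.46). With the marker scores as covariates Arntl (-0.11), Rora (0.54), Nr1d1 (-0.11) and Vcam1 (-0.13) turned, with edgeR on the 10 libraries Arntl (-0.042) and Vcam1 (-0.025), with limma-voom Cxcl1 (1.32) and Arntl (-0.0016), and with the replicate block Vcam1 (-0.11). With each library left out, values ran from -2.07 (without ZT1 replicate 5) to 4.61 for Dct, from -0.053 to 0.32 for Arntl, from -0.58 to 0.023 for Rora, from -0.023 to 0.34 for Lyve1 and from -0.69 to 0.53 for Vcam1. The median over all genes moved from 0.39 to 0.95 with limma-voom and to -0.21 with the length offset. The difference in the share of the 100 most counted genes turned from 11.6 to -0.51 percentage points without Lars2, Rn45s and Mir6236. The other 4 library properties kept their direction and side of the threshold, and the numbers of separated genes stayed within 1.5 times under the other normalizations.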

Other observations

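Some gene groups were measured without a clear difference. Of 77 cytosolic ribosomal protein genes tested, 57 had a positive log2 fold change, beside 12003 of all 19209 genes tested. The median of the list was 0.22 (-0.24 with the gene read share as a covariate). An unadjusted p of 0.05 or less was reached by 1, higher at ZT19 (7.25% of all genes), and 0 had groups apart (8.56%). The summed level ran from 268318 to 1065470 at ZT1 and from 121739 to 1428470 at ZT19. Replication-dependent histone genes, whose transcripts lack long poly(A) tails, passed the filter on low counts in 39 of 67 cases, and since the filter used the time points, no count of their directions is given. On the log2 scale, expression over 18054 genes correlated at 0.821 to 0.913 among ZT1 libraries, at 0.810 to 0.888 among ZT19 libraries and at 0.754 to 0.873 between the groups, as a description.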
